A study of Mus musculus with 8 samples.

Results

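The 10 genes described here encode the constant regions of mouse antibodies and the chain that holds antibody multimers together: *Ighm*, *Ighd*, *Ighg1*, *Ighg2b*, *Ighg2c*, *Ighg3*, *Ighe*, *Igha*, *Igkc* and *Jchain*. They were chosen by symbol, from FPKM values already seen in the same 8 libraries of sorted regulatory T (Treg) cells, so their levels are a description and carry no test. All 10 were found among the 53360 genes of the files that matched the annotation. FPKM is a fragment count scaled for exon length and for a library total, which here was not always the number of reads on genes.

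Antibodies are made by B cells and, in large amounts, by plasma cells, and T cells do not secrete them. A B cell first joins a variable, a diversity and a joining segment to the mu constant region (*Ighm*), and *Ighd* is made from the same primary transcript by splicing. Class switching then places a gamma, epsilon or alpha constant region next to the rearranged segments, with interleukin 4 favouring IgG1 and IgE in the mouse, and kappa or lambda light chains complete the molecule.

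Treg cells came from the spleen and lymph nodes of mice aged 3 to 4 weeks, labelled C57BL/6, and each group was 1 library made from 100000 cells. All mice carried the R26CAG-FlpoER recombinase, and *Brg1* deletion was driven by YFP-Cre under *Foxp3* control. The WT library was from BrgF/+ mice with Foxp3YFP-Cre/+, so its cells were heterozygous for *Brg1* rather than intact. From mosaic females (BrgF/ΔR), in which X inactivation silences the Cre in some Treg cells, a Brg1-sufficient (YFP−, labelled Foxp3+/+) and a Brg1-deleted (YFP+) subset were sorted. The rKO1 mice (BrgF/ΔR, Foxp3YFP-Cre/YFP-Cre), which are severely inflamed whereas mosaic females are healthy, gave 1 library without treatment. They also gave a Brg1-deleted (GFP+) and a Brg1-reexpressed (GFP−) subset on day 7 after a low dose of tamoxifen (TAM), the latter with a genotype label of BrgF/+. A later experiment sorted CD44hi CD62Llo activated Treg (aTreg) cells from TAM-treated rKO1 mice into the same 2 subsets, labelled BrgF/F and BrgF/+.

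Non-CD4 cells were removed magnetically before the sort, and how many mice went into a library was not stated in the labels. The ΔR allele was made on a mixed background and had been backcrossed for few generations. All 6 Treg genes checked (*Foxp3*, *Il2ra*, *Cd4*, *Cd3e*, *Ctla4* and *Ikzf2*) were at or above 1 FPKM in all 8 libraries. *Smarca4*, which encodes BRG1, was at 14.8 FPKM in WT and 12.1 in mosaic Brg1-sufficient cells, at 7.44, 7.34 and 6.13 in the Brg1-deleted mosaic, untreated rKO1 and TAM-treated rKO1 cells, and at 9.52 in Brg1-reexpressed cells. In the aTreg libraries it went against the labels, at 11.1 FPKM in the library labelled Brg1-deleted and 9.02 in the library labelled Brg1-reexpressed, so no Brg1 direction is drawn from that pair.

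Reads assigned to genes ranged from 16324017 to 24093553 a library. The 10 genes held between 0.0185% (mosaic Brg1-deleted) and 0.123% (rKO1 Brg1-reexpressed) of the reads of a total Treg library, and 0.120% and 0.170% of the aTreg libraries. With 1 library a group no difference has a replicate check, and every interval below is a 95% interval that covers counting error only. In RNA of bulk samples, fewer cells of a type and less RNA per cell cannot be told apart.

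*Ighm* was by far the most abundant heavy-chain constant gene, and its order over the total Treg libraries differed from that of the summed B cell genes. Its FPKM was 230 in WT, 296 in mosaic Brg1-sufficient, 53.5 in mosaic Brg1-deleted, 206 in untreated rKO1, 150 in TAM-treated rKO1 Brg1-deleted and 697 in rKO1 Brg1-reexpressed cells. In the aTreg libraries it was 537 in the one labelled Brg1-deleted and 520 in the one labelled Brg1-reexpressed. The order of the 6 total Treg libraries was thus reexpressed, mosaic sufficient, WT, untreated rKO1, rKO1 deleted and mosaic deleted, and counting intervals of neighbours in this order did not overlap. Within the mosaic females *Ighm* was 5.55-fold lower in Brg1-deleted than in Brg1-sufficient cells (interval 5.31 to 5.80). Within TAM-treated rKO1 mice it was 4.81-fold higher in Brg1-reexpressed than in Brg1-deleted cells (4.66 to 4.96). Untreated rKO1 and WT cells differed little, *Ighm* being 1.11-fold lower in the former, and the aTreg pair had a ratio of 0.997 (0.977 to 1.02).

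**Figure D1:**
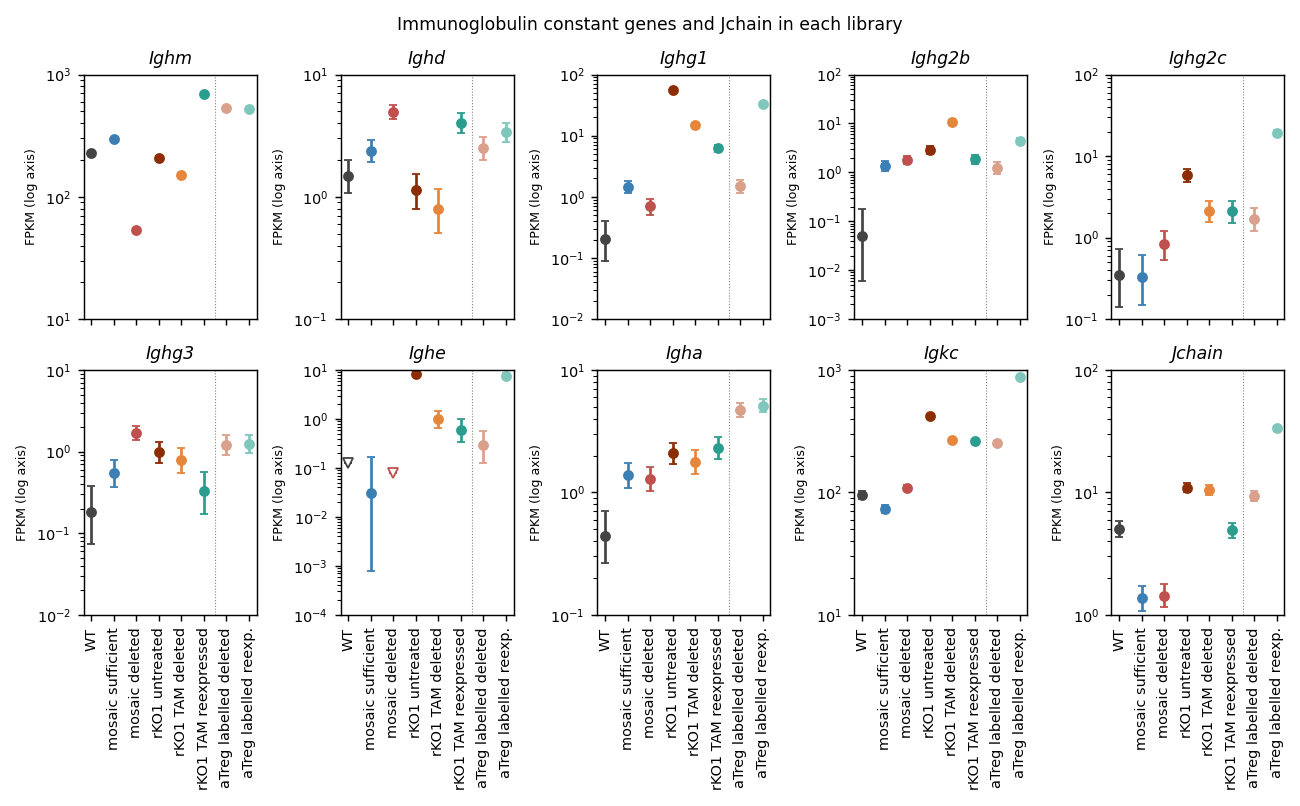
FPKM of each of the 10 genes (one panel each, log axis) in the 6 total Treg libraries, left of the dotted line, and the 2 aTreg libraries, right of it. Points are single libraries, bars are 95% Poisson intervals of the reads, and open triangles mark 0 reads, drawn at the level of 3 reads. *Ighm* is lowest in mosaic deleted cells (53.5 FPKM), whereas *Ighg1*, *Ighe* and *Igkc* are highest among the total Treg libraries in untreated rKO1 cells (56.6, 8.44 and 422 FPKM).

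*Ighd*, spliced from the same transcription unit as *Ighm* in naive B cells, had a different order. It was at 1.49 FPKM in WT, 2.38 in mosaic Brg1-sufficient, 4.96 in mosaic Brg1-deleted, 1.13 in untreated rKO1, 0.790 in rKO1 Brg1-deleted and 4.03 in rKO1 Brg1-reexpressed cells. It was at 2.50 and 3.37 FPKM in the aTreg libraries labelled Brg1-deleted and Brg1-reexpressed. *Ighd* was therefore highest where *Ighm* was lowest, in mosaic Brg1-deleted cells, where it was 2.08-fold higher than in Brg1-sufficient cells (1.63 to 2.67). In the rKO1 pair it moved with *Ighm* and was 5.29-fold higher in reexpressed cells (3.42 to 8.49). There were 10.7 *Ighm* reads for each *Ighd* read in mosaic Brg1-deleted cells, compared with 123 to 213 in the other 7 libraries.

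B cell genes (a list of 12), summed, did not rank the libraries as *Ighm* did. Of the 3 with enough reads, 0 were past 2-fold in the mosaic pair, and in the rKO1 pair *Cd79b* was higher in reexpressed cells, as *Ighm* was. *Cd79a*, which encodes the signalling partner of membrane immunoglobulin, had 192 reads in WT, 272 in mosaic Brg1-sufficient, 530 in mosaic Brg1-deleted, 79 in untreated rKO1, 107 in rKO1 Brg1-deleted and 82 in rKO1 Brg1-reexpressed cells, with 126 and 156 in the aTreg libraries. Among the total Treg libraries it was highest in mosaic Brg1-deleted cells and lowest in the 3 rKO1 libraries. *Ighm* reads per *Cd79a* read ranged from 4.53 in mosaic Brg1-deleted to 253 in rKO1 Brg1-reexpressed cells, with 34.3 in WT, 42.7 in mosaic Brg1-sufficient, 87.0 in untreated rKO1 and 44.1 in rKO1 Brg1-deleted cells. In total, 3 or 4 of the 12 genes were at or above 1 FPKM in a total Treg library, and their summed FPKM was 64.5 in WT, 42.6 and 51.6 in mosaic Brg1-sufficient and Brg1-deleted cells, 22.4 in untreated rKO1, and 22.3 and 30.4 in rKO1 Brg1-deleted and Brg1-reexpressed cells. *Pax5*, the B lineage transcription factor and lowest of the list, had 0 reads in untreated rKO1, in Brg1-reexpressed and in both aTreg libraries, and 23 in mosaic Brg1-deleted cells. *Cd79b*, the highest by summed FPKM, had 996, 644, 557, 144, 188 and 358 reads in the total Treg libraries and 1460 and 1028 in aTreg. There were 1.05 to 11.6 *Cd79b* reads per *Cd79a* read. The 10 genes had been grouped as RNA from admixed B and plasma cells, and the source of the *Ighm* reads was not tested.

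**Figure D2:**
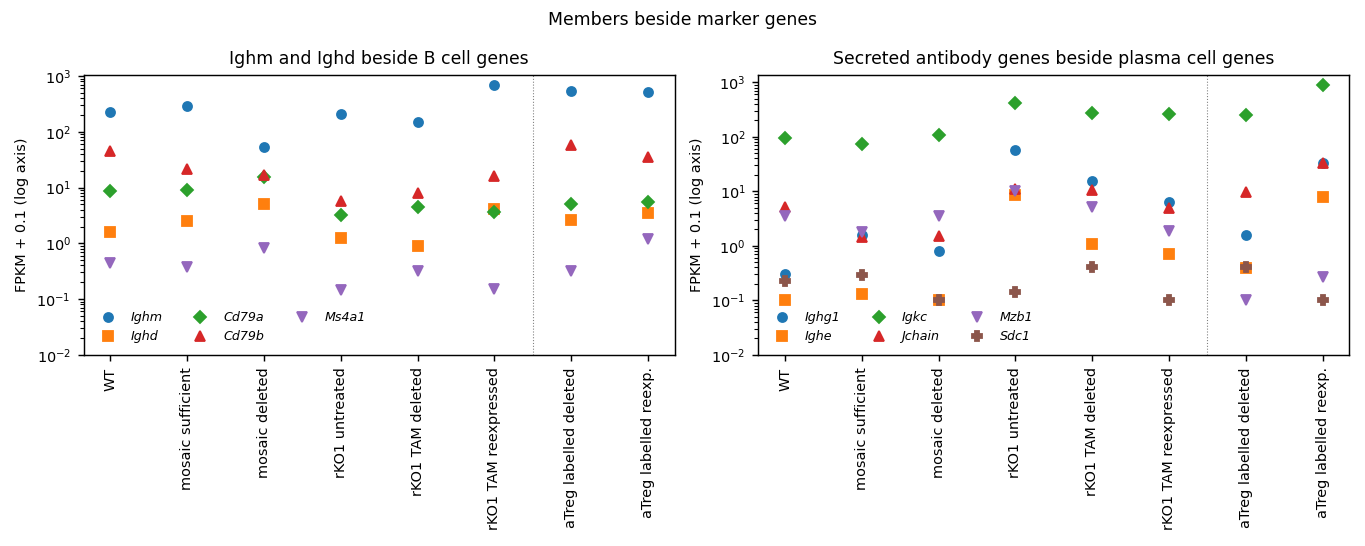
FPKM plus 0.1 (log axis) of *Ighm* and *Ighd* beside 3 B cell genes (left) and of *Ighg1*, *Ighe*, *Igkc* and *Jchain* beside the plasma cell genes *Mzb1* and *Sdc1* (right), 1 point per library, aTreg right of the dotted line. *Cd79a* is highest in mosaic deleted cells (530 reads), where *Ighm* is lowest. *Mzb1* is highest in untreated rKO1 cells (215 reads).

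The switched classes are told apart by their hinge exons among others, the short exon between the first and second constant domains that carries the cysteines joining the heavy chains. These exons of the 4 IgG subclasses are shown because the class composition rests on reads being told apart between these genes. They lie on the minus strand of chromosome 12 in GRCm38 (mm10), at chr12:113329844-113329882 for *Ighg1*, chr12:113307261-113307326 for *Ighg2b*, chr12:113288263-113288325 for *Ighg2c* and chr12:113360529-113360576 for *Ighg3*. The sequences are from GENCODE M21 transcripts, and capitals mark in-frame cysteine codons, of which there are 4, 4, 3 and 1.
Ighg1: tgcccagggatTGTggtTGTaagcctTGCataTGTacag
Ighg2b: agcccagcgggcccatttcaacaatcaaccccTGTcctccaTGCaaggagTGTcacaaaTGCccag
Ighg2c: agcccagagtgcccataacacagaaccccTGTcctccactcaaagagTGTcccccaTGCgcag
Ighg3: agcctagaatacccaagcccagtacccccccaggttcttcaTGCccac

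The hinge exons span 39, 66, 63 and 48 bases. Over the whole short transcript forms, *Ighg2b* and *Ighg2c* were 86.3% identical, and the other 5 pairs of IgG genes 72.6% to 74.8%. No stretch of 150 bases, the read length, from the short form of any of the 10 genes was found in another of them. Exons outside the short forms were not compared with each other. All 8 heavy-chain genes lie on the minus strand of chromosome 12 in the order *Ighm*, *Ighd*, *Ighg3*, *Ighg1*, *Ighg2b*, *Ighg2c*, *Ighe* and *Igha*, from *Ighm* at chr12:113418558-113422730 to *Igha* at chr12:113254830-113260236.

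*Ighg1*, which encodes the constant region of IgG1, was close to absent in WT and the most abundant switched gene in untreated rKO1 cells. Its FPKM was 0.203 in WT (8 reads), 1.45 in mosaic Brg1-sufficient, 0.697 in mosaic Brg1-deleted, 56.6 in untreated rKO1 (2600 reads), 15.1 in rKO1 Brg1-deleted and 6.21 in rKO1 Brg1-reexpressed cells. All 3 rKO1 libraries were above all 3 libraries of WT and mosaic mice. Untreated rKO1 cells were 282-fold above WT (interval 143 to 653) and 76.8-fold above mosaic Brg1-deleted cells (56.9 to 106). After TAM, *Ighg1* was 3.82-fold lower in the Brg1-deleted subset than in untreated rKO1 cells (3.50 to 4.17), and 2.35-fold lower again in reexpressed than in deleted cells (2.03 to 2.73). In the aTreg libraries it was at 1.48 FPKM (67 reads) in the one labelled Brg1-deleted and 33.5 (1737 reads) in the one labelled Brg1-reexpressed, a ratio of 23.3 (18.3 to 30.2).

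*Ighe*, the epsilon constant gene, had 0 reads in WT, 1 in mosaic Brg1-sufficient, 0 in mosaic Brg1-deleted, 237 in untreated rKO1, 26 in rKO1 Brg1-deleted and 15 in rKO1 Brg1-reexpressed cells. In FPKM the last 3 were 8.44, 0.984 and 0.599. The 3 libraries of WT and mosaic mice thus held 1 *Ighe* read in all. Counting 3 reads in the empty library as the floor, untreated rKO1 cells were at least 68.5-fold above WT and at least 100-fold above mosaic Brg1-deleted cells. *Ighe* was 8.73-fold lower in rKO1 Brg1-deleted than in untreated cells (5.81 to 13.6). The aTreg libraries labelled Brg1-deleted and Brg1-reexpressed had 8 and 244 reads (0.289 and 7.69 FPKM), a ratio of 27.4 (13.7 to 64.2).

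*Ighg2b*, the gene of IgG2b, did not share this order. It was at 0.0492 FPKM in WT (2 reads), 1.38 in mosaic Brg1-sufficient, 1.82 in mosaic Brg1-deleted, 2.89 in untreated rKO1, 10.9 in rKO1 Brg1-deleted and 1.84 in rKO1 Brg1-reexpressed cells. The TAM-treated Brg1-deleted subset was highest, 3.71-fold above untreated rKO1 (3.06 to 4.52) and 5.71-fold above the reexpressed subset sorted from such mice (4.49 to 7.35). *Ighg2b* in untreated rKO1 cells was 59.4-fold above WT, with an interval of 16.1 to 495 that reflects the 2 reads in WT. In aTreg it was at 1.24 and 4.39 FPKM, 3.64-fold higher in the library labelled Brg1-reexpressed (2.72 to 4.94).

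*Ighg2c*, the IgG2c gene that C57BL/6 mice carry where some other strains carry *Ighg2a*, was at 0.348 FPKM in WT, 0.326 in mosaic Brg1-sufficient, 0.824 in mosaic Brg1-deleted, 5.79 in untreated rKO1, 2.13 in rKO1 Brg1-deleted and 2.10 in rKO1 Brg1-reexpressed cells. Untreated rKO1 cells were again highest, 16.8-fold above WT (7.96 to 42.7) and 2.77-fold above rKO1 Brg1-deleted cells (1.98 to 3.95). The aTreg libraries were at 1.68 and 19.3 FPKM, a ratio of 11.8 (8.51 to 16.8) in favour of the one labelled Brg1-reexpressed.

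*Ighg3* and *Igha* were low and varied less. *Ighg3*, the gene of IgG3, was at 0.184 FPKM in WT, 0.555 in mosaic Brg1-sufficient, 1.71 in mosaic Brg1-deleted, 0.989 in untreated rKO1, 0.788 in rKO1 Brg1-deleted and 0.328 in rKO1 Brg1-reexpressed cells, with 1.21 and 1.25 in aTreg. Among the 6 switched genes it was the one whose highest total Treg level was in mosaic Brg1-deleted cells. *Igha*, the alpha constant gene of mucosal IgA, was at 0.444, 1.39, 1.29, 2.10, 1.78 and 2.33 FPKM in the same order, with 4.72 and 5.11 in aTreg. *Igha* in untreated rKO1 was 4.77-fold above WT (2.87 to 8.38), and the 5 total Treg libraries other than WT lay between 1.29 and 2.33 FPKM.

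As a composition, the sum of the 8 heavy-chain constant genes was nearly all *Ighm* in 4 libraries and held a visible switched fraction in the other 4. The 6 switched genes made up 0.527% of the summed FPKM in WT (interval 0.380% to 0.712%), 1.69% in mosaic Brg1-sufficient (1.496% to 1.90%), 9.79% in mosaic Brg1-deleted (8.85% to 10.8%), 27.1% in untreated rKO1 (26.3% to 27.9%), 17.4% in rKO1 Brg1-deleted (16.5% to 18.3%) and 1.88% in rKO1 Brg1-reexpressed cells (1.72% to 2.05%). The aTreg libraries labelled Brg1-deleted and Brg1-reexpressed held 1.93% (1.76% to 2.12%) and 12.0% (11.6% to 12.4%). The intervals of mosaic Brg1-sufficient and rKO1 Brg1-reexpressed cells overlapped, as did those of the latter and the aTreg library labelled Brg1-deleted, and those of other neighbours in the order did not. A share depends on *Ighm* as much as on the switched genes. The summed switched FPKM was 1.23, 5.13, 6.34, 76.9, 31.7 and 13.4 in the total Treg libraries, so the higher switched share in mosaic Brg1-deleted than in Brg1-sufficient cells came with a similar switched sum and a far lower *Ighm*.

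The deposited FPKM divide by the length of all merged exons, which for 4 of the switched genes include a long membrane exon. With reads divided by the length of the short, secreted form instead (an alternative chosen after seeing the data), the shares became 0.851%, 3.04%, 15.1%, 38.9%, 27.4% and 3.15% in the total Treg libraries and 3.27% and 17.2% in aTreg, in the same order.

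**Figure D3:**
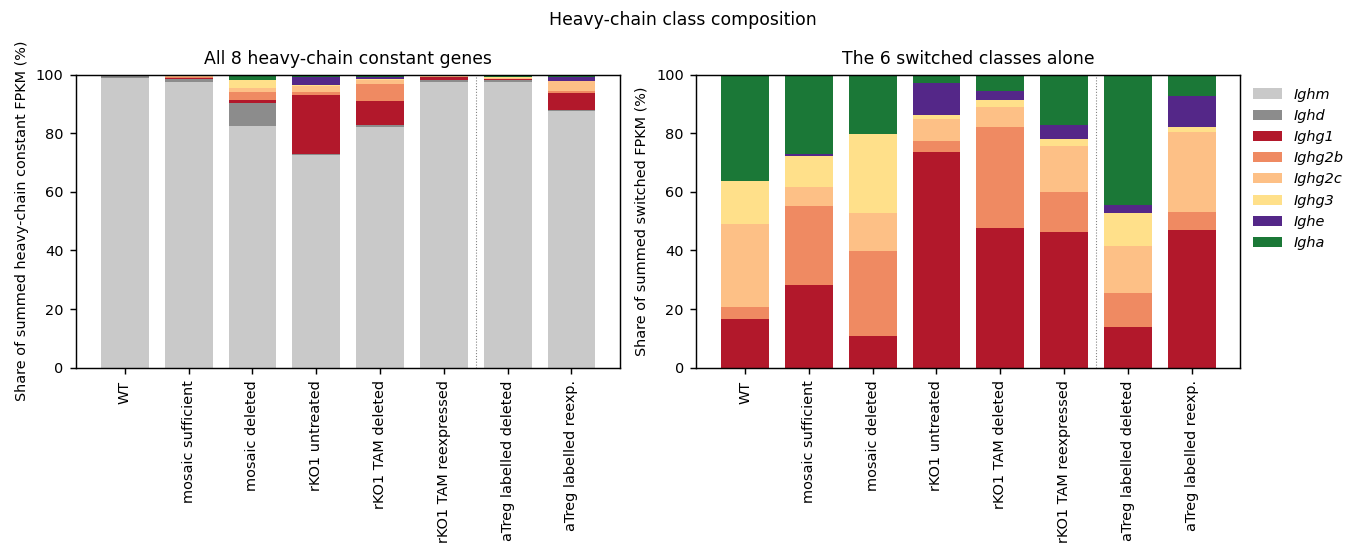
Stacked bars of the share of summed FPKM (percent) of each heavy-chain constant gene per library, for all 8 genes (left) and for the 6 switched genes alone (right), aTreg right of the dotted line. The switched share is 27.1% in untreated rKO1 and 0.527% in WT cells, and *Ighg1* fills 73.7% of the switched part in untreated rKO1 cells.

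Within the switched part, *Ighg1* made up 73.7% of the FPKM in untreated rKO1, 47.6% in rKO1 Brg1-deleted and 46.3% in rKO1 Brg1-reexpressed cells, against 16.6%, 28.2% and 11.0% in WT, mosaic Brg1-sufficient and mosaic Brg1-deleted cells. The WT value rests on 42 switched reads. In aTreg, *Ighg1* made up 13.9% in the library labelled Brg1-deleted and 47.0% in the one labelled Brg1-reexpressed. IgG genes together made up 52.8% to 91.3% of the switched part in all 8 libraries. Mosaic Brg1-deleted cells stood out for *Ighd*, which made up 7.65% of all heavy-chain FPKM there and 0.398% to 0.784% in the other 7 libraries.

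The kappa light chain constant gene *Igkc* was the second most abundant of the 10 genes in WT, mosaic Brg1-sufficient and reexpressed cells and the most abundant in the others of that experiment. It was at 95.7 FPKM in WT, 73.3 in mosaic Brg1-sufficient, 109 in mosaic Brg1-deleted, 422 in untreated rKO1, 269 in rKO1 Brg1-deleted and 262 in rKO1 Brg1-reexpressed cells. The 3 rKO1 libraries were above the other 3, with untreated rKO1 4.46-fold above WT (4.13 to 4.83). The TAM-treated rKO1 subsets had a ratio of 1.01 (0.953 to 1.07), while *Ighm* differed 4.81-fold between them. The aTreg libraries were at 253 and 880 FPKM, a ratio of 3.58 (3.42 to 3.75). *Ighm* FPKM per *Igkc* FPKM was 2.41, 4.03, 0.490, 0.487, 0.558 and 2.66 in the total Treg libraries and 2.12 and 0.591 in aTreg, which separated the same 4 libraries with a high switched share from the other 4.

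Lambda light chain genes were not members of the set but complete the light chains. *Iglc1* was at 6.38, 4.55, 7.69, 20.2, 31.2 and 6.70 FPKM in the total Treg libraries, highest in rKO1 Brg1-deleted cells. *Iglc2* was at 29.6, 11.8, 20.7, 5.91, 11.6 and 3.93 FPKM and *Iglc3* at 24.5, 10.7, 25.9, 4.00, 9.69 and 3.22. Unlike *Igkc*, both were lower in untreated rKO1 than in WT, by 4.96-fold (3.76 to 6.61) and 6.06-fold (4.13 to 9.14), and *Iglc1* was 3.19-fold higher (2.28 to 4.56). *Iglc2* and *Iglc3* were 94.1% identical but shared no stretch of 150 bases, whereas *Iglc1* was 66.9% and 67.4% identical to them. Lambda made up 38.7%, 27.0% and 33.2% of summed light-chain constant FPKM in WT, mosaic Brg1-sufficient and mosaic Brg1-deleted cells and 6.64%, 16.3% and 5.02% in the 3 rKO1 libraries. In aTreg it was 6.19% and 7.93%.

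*Jchain* encodes the joining chain of multimeric IgM and IgA, made mainly by antibody-secreting cells. It was at 5.05 FPKM in WT, 1.37 in mosaic Brg1-sufficient, 1.44 in mosaic Brg1-deleted, 10.9 in untreated rKO1, 10.6 in rKO1 Brg1-deleted and 4.93 in rKO1 Brg1-reexpressed cells. Untreated rKO1 was 2.19-fold above WT (1.85 to 2.60), and reexpressed cells were 2.07-fold below their deleted counterparts (1.74 to 2.46), at about the WT level. Between the libraries of WT and mosaic Brg1-sufficient cells, both labelled with functional *Brg1*, *Jchain* differed 3.42-fold (2.60 to 4.55), a difference between 2 libraries with the same Brg1 label. The aTreg libraries were at 9.40 and 33.5 FPKM, a ratio of 3.67 (3.30 to 4.10).

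Among the total Treg libraries, the plasma cell gene *Mzb1* was highest where the switched sum was highest. The summed FPKM of the plasma cell list did not follow the switched genes. *Mzb1*, an endoplasmic reticulum chaperone of B and plasma cells, had 62, 43, 99, 215, 103 and 34 reads in the total Treg libraries, highest in untreated rKO1, and 0 and 4 in aTreg. *Sdc1*, the surface marker of plasma cells, had 7, 15, 0, 3, 19 and 0 reads and 21 and 0 in aTreg. *Tnfrsf17*, the lowest of the list of 10, had at most 5 reads in any library, and *Creld2*, the highest by summed FPKM, had 1105 to 2185. Of the 10 genes, 6 to 8 were at or above 1 FPKM in each library, with a summed FPKM of 107 (mosaic Brg1-deleted) to 229 (rKO1 Brg1-reexpressed), but *Prdm1*, *Irf4* and *Xbp1* are also used by Treg cells. In untreated rKO1 against WT, *Mzb1*, *Fkbp11*, *Irf4* and *Prdm1* were more than 2-fold higher and none of the 7 genes with enough reads lower. In rKO1 Brg1-reexpressed against deleted cells *Txndc5* and *Prdm1* were higher and *Mzb1* lower. In the aTreg pair none of the 5 genes with enough reads was past 2-fold. The list summed to 172 and 173 FPKM in the aTreg libraries labelled Brg1-deleted and Brg1-reexpressed, where the switched sum was 10.6 and 71.2 FPKM. Most of each list sum came from *Creld2* (59.7 and 58.9 FPKM) and *Xbp1* (87.6 and 88.2 FPKM), so it says little of the other genes. *Sdc1* was named after its values were seen. The part of B or plasma cells in the differences of the 10 genes was not tested.

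Variable segments gave another view of the same reads. Heavy-chain variable (*Ighv*) genes, 185 in the annotation, had 32 reads in WT, 61 in mosaic Brg1-sufficient, 99 in mosaic Brg1-deleted, 366 in untreated rKO1, 123 in rKO1 Brg1-deleted and 93 in rKO1 Brg1-reexpressed cells, and 145 and 536 in aTreg. Per 100 reads of heavy-chain constant genes this was 0.479, 0.510, 3.31, 3.60, 2.03 and 0.435, and 0.795 and 2.35 in aTreg. The 4 libraries with 2.03 or more were those with the highest switched shares and the lowest *Ighm* per *Igkc*. Kappa variable genes (160 genes) stayed between 23.7 and 39.6 reads per 100 *Igkc* reads in all 8 libraries, with 31.8 in WT and 39.6 in untreated rKO1. Heavy-chain constant reads thus came with few variable reads in the libraries dominated by *Ighm*, and kappa constant reads came with variable reads throughout. Lambda variable reads per 100 lambda constant reads varied far more, at 16.4, 4.08, 7.24, 150, 114 and 71.6 in the total Treg libraries and 40.9 and 52.5 in aTreg, with the 3 rKO1 libraries above the other 3.

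**Figure D4:**
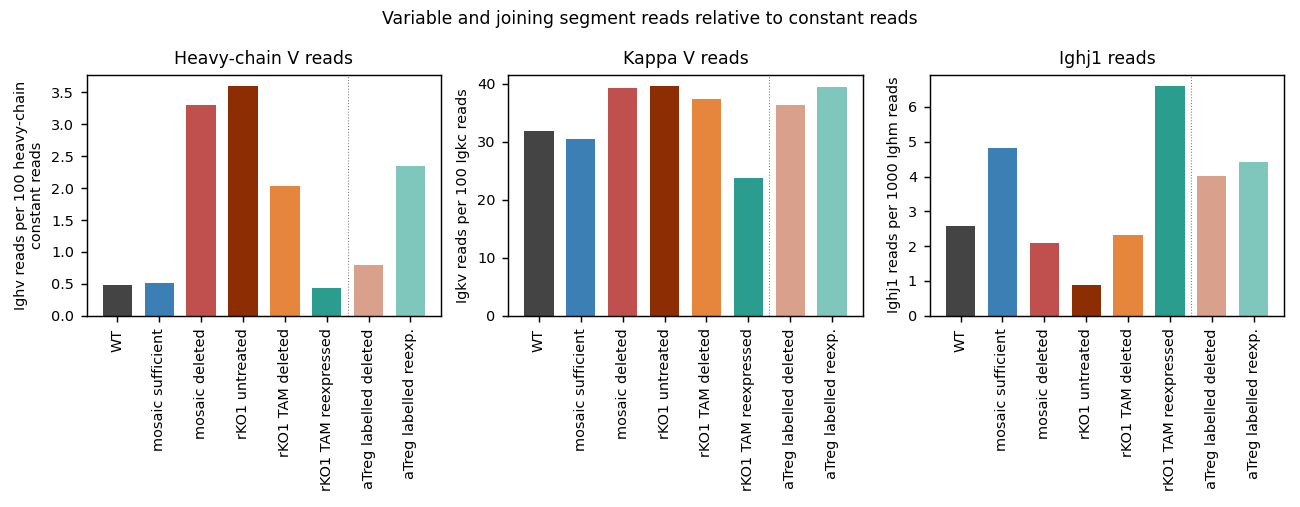
Bars of *Ighv* reads per 100 heavy-chain constant reads (left), *Igkv* reads per 100 *Igkc* reads (middle) and *Ighj1* reads per 1000 *Ighm* reads (right) in each library, all axes from 0. The heavy-chain ratio runs from 0.435 to 3.60, and the kappa ratio from 23.7 to 39.6.

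Reads at the joining and diversity end of the heavy-chain locus ran with *Ighm*, but not in proportion to it. The 2 segments concerned, chosen after their values were seen, are shown because their reads ran with *Ighm*. They lie 7.05 and 7.80 kb from *Ighm* on the minus strand of GRCm38, *Ighj1* at chr12:113429781-113429833 and *Ighd4-1* at chr12:113430528-113430538. Capitals in *Ighj1* mark the tryptophan codon that opens its conserved motif.
Ighj1: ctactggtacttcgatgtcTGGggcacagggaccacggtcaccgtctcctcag
Ighd4-1: ctaactgggac

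*Ighj1* had 17, 56, 5, 6, 11 and 137 reads in the total Treg libraries and 71 and 87 in aTreg. *Ighd4-1*, of 11 bases, had 13, 41, 0, 2, 2 and 69 reads, and 4 and 13 in aTreg. Both were highest in rKO1 Brg1-reexpressed and lowest or near lowest in mosaic Brg1-deleted cells, as *Ighm* was. Per 1000 *Ighm* reads, *Ighj1* had 2.58, 4.82, 2.08, 0.873, 2.33 and 6.60 reads. Untreated rKO1 and WT cells had 6 and 17 *Ighj1* reads although *Ighm* was at 206 and 230 FPKM. Over the 6 total Treg libraries, which share depth and scaling within a library, Pearson's r of log2(FPKM + 0.1) with *Ighm* was 0.91 for *Ighj1*, compared with 0.21 for *Igkc*, 0.25 for *Jchain*, 0.13 for *Cd79b* and −0.61 for *Cd79a*. For *Prdm1*, a gene of the plasma cell list that Treg cells also use, it was 0.88. The genes given an r here were all chosen after their values were seen, so these r are a description and no test.

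Some variable genes were frequent in 1 library and rare in the others. *Igkv3-7* had 239 reads in untreated rKO1 cells, 12.2% of their light-chain variable reads, and 0 to 3 in the other 5 total Treg libraries. *Ighv5-6* and *Ighv1-2* each had 40 reads there, 10.9% each of the *Ighv* reads. They had 2 and 0 in rKO1 Brg1-deleted cells and 0 in the 4 other total Treg libraries. Among the total Treg libraries these 3 genes thus had nearly all their reads in 1 library. They were picked for a high mean FPKM over these same libraries. A high value in 1 library can give such a mean, so nothing is read from this. In the aTreg libraries labelled Brg1-deleted and Brg1-reexpressed, *Igkv3-7* had 6 and 9 reads, *Ighv5-6* 3 and 11, and *Ighv1-2* 0 and 3. *Igkv14-111* instead had 247 reads in rKO1 Brg1-deleted and 79 in rKO1 Brg1-reexpressed cells (18.0% and 13.1% of light-chain variable reads), 50 in untreated rKO1 and 5 to 19 in the rest, with 4 and 559 in aTreg. *Iglv1*, a lambda variable gene, was spread over more libraries, with 42, 6, 36, 359, 454 and 69 reads in the total Treg libraries. It held 18.3% of light-chain variable reads in untreated rKO1 and 33.0% in rKO1 Brg1-deleted cells, the highest share of the 3 light-chain genes in both. *Ighv6-3* had 0, 2, 3, 17, 11 and 9 reads.

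The counts of members past 2-fold, with 5 or more CPM (reads scaled to the size of the library) in either library after scaling by the trimmed mean of M-values (TMM), were as follows. The values chose the genes in part, so the counts are set beside the share of all genes and nothing is read from them. In untreated rKO1 against WT, 8 of the 10 had enough reads, 7 were higher (all but *Ighm*) and 0 lower, compared with 8.6% higher and 7.1% lower among 10472 genes, and the median log2 difference was 3.15 for the 8 and −0.05 for all genes. In untreated rKO1 against mosaic Brg1-deleted cells, 9 had enough reads, with 6 higher (*Ighm*, *Ighg1*, *Ighg2c*, *Ighe*, *Igkc* and *Jchain*) and *Ighd* lower, beside 8.17% and 6.98% of all genes. In rKO1 Brg1-deleted cells after TAM against untreated rKO1, 8 had enough reads, *Ighg2b* was higher and *Ighg1*, *Ighg2c* and *Ighe* lower, beside 2.15% and 2.26% of all genes.

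In rKO1 Brg1-reexpressed against Brg1-deleted cells, 7 had enough reads, *Ighm* and *Ighd* were higher and *Ighg1*, *Ighg2b* and *Jchain* lower, beside 7.08% higher and 5.69% lower among 10323 genes. The median log2 difference was 0.01 for the 7 and 0.06 for all genes. In mosaic Brg1-deleted against Brg1-sufficient cells only 3 had enough reads, with *Ighd* higher and *Ighm* lower, beside 2.06% and 4.05% of all genes. Between mosaic Brg1-sufficient and WT cells, a pair that shares the Brg1 label, 3 had enough reads and *Jchain* alone was lower in the mosaic cells, with none higher, beside 4.21% and 5.16% of all genes. In the aTreg library labelled Brg1-reexpressed against the one labelled Brg1-deleted, 9 had enough reads and 6 were higher (*Ighg1*, *Ighg2b*, *Ighg2c*, *Ighe*, *Igkc* and *Jchain*), with none lower, beside 4.4% and 2.03% of all genes. The comparisons with untreated rKO1 cells share that library, and the 2 with WT share the WT library.

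**Figure D5:**
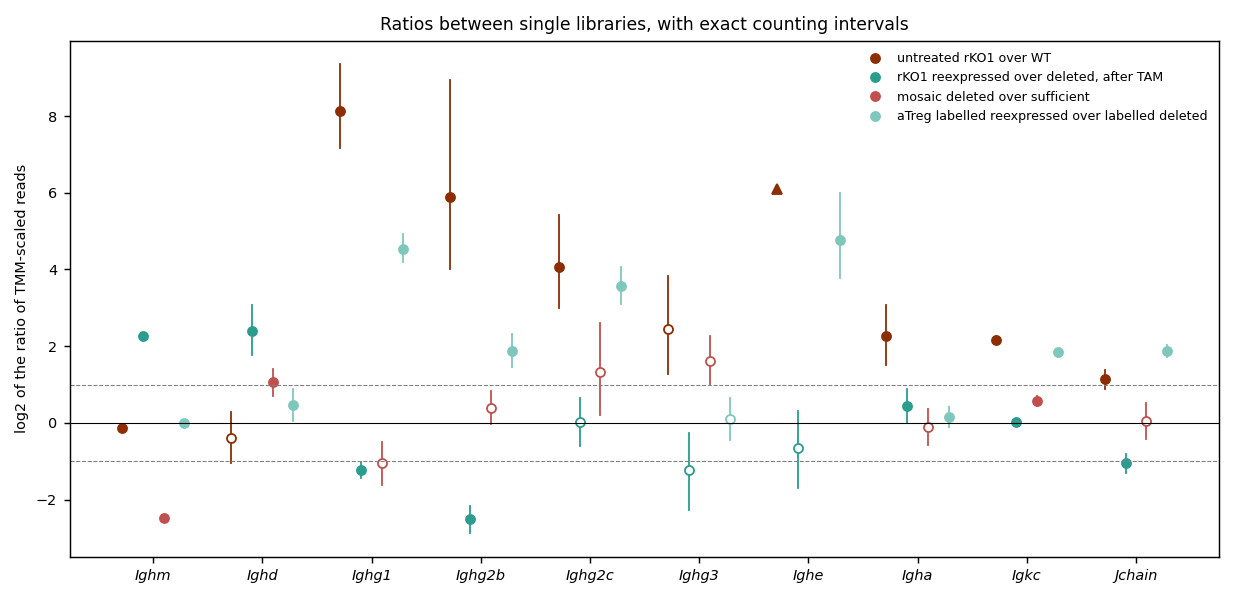
Ratio between libraries (log2 of TMM-scaled reads) for each gene in 4 comparisons, with 95% exact counting intervals, dashed lines at 2-fold, open symbols where neither library reached 5 CPM, and a triangle for the lower bound of *Ighe* over WT. Untreated rKO1 exceeds WT by 2 or more fold for 7 of the genes that reached 5 CPM, and for *Ighg3*, drawn open. *Ighm* is lower in mosaic deleted than sufficient cells and higher in rKO1 reexpressed than deleted cells.

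Other cell types moved with some of these differences. Beside the aTreg difference, the 6 erythroid genes, led by *Hbb-bs*, summed to 1500 FPKM in the library labelled Brg1-deleted and 28864 in the one labelled Brg1-reexpressed, all 6 more than 2-fold higher there, and took 0.119% and 2.25% of the reads. The B cell genes *Ms4a1* (23 and 135 reads) and *Bank1* (55 and 183) were also higher in the latter library, and the B cell sum was 77.7 and 56.8 FPKM. All 4 class II genes (*H2-Aa*, *H2-Ab1*, *H2-Eb1* and *Cd74*, summed FPKM 206 and 462) were higher there, as was 1 of 8 myeloid genes (*Adgre1*), the myeloid sum being 373 and 524 FPKM. Whether RNA from these cells plays a part in the aTreg difference was not tested.

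In the total Treg libraries, class II genes summed to 263 FPKM in WT and 423 in untreated rKO1, with 3 of 4 more than 2-fold higher. Myeloid genes, led by *Lyz2* and with *Itgam* lowest, summed to 332 FPKM in WT and to 44.7 to 107 in the other 5 libraries. Erythroid genes summed to 200 (mosaic Brg1-deleted) to 860 FPKM (rKO1 Brg1-deleted). CD8 T or NK genes, of which *Cd8b1* was highest and *Klrb1c* lowest, summed to 6.55 to 20.3 FPKM. Of 6 germinal centre genes, 2 had enough reads and none of these was past 2-fold in any of the 7 comparisons, *Fas* being highest and *Mybl1* lowest. The part of these cells was not tested either.

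Signals for class switching, as made by T cells, were also read in the libraries. *Il4*, the cytokine that favours IgG1 and IgE, had 68 reads in WT, 62 and 11 in mosaic Brg1-sufficient and Brg1-deleted, 219 in untreated rKO1, 832 in rKO1 Brg1-deleted and 208 in rKO1 Brg1-reexpressed cells, and 44 and 180 in aTreg. It was therefore highest in rKO1 Brg1-deleted cells, where *Ighg1* and *Ighe* were below untreated rKO1 and *Ighg2b* above it. Of the 10 genes of this list, *Il4* and *Il10* were higher and *Tgfb1* and *Cd40lg* lower in untreated rKO1 than in WT among the 5 with enough reads, and *Il4*, *Il5*, *Il21* and *Ifng* higher and none lower in rKO1 Brg1-deleted than in untreated cells among 7. *Cd40lg* had the highest summed FPKM of the list and *Il13* the lowest, with at most 18 reads.

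Of 8 T follicular genes, *Icos* and *Tox2* were higher and *Cxcr5* and *Pdcd1* lower in untreated rKO1 than in WT, and *Cxcr5*, *Icos* and *Tox2* were lower in mosaic Brg1-deleted than in sufficient cells. *Sh2d1a* was the highest and *Sostdc1* the lowest of that list. Of 11 receptors and transporters of antibody, *Fcgr3* and *Fcgr4*, which bind IgG, were higher in untreated rKO1 than in WT and none lower, among 4 with enough reads. *Fcgr4* had 25 reads in WT, 0 and 1 in the mosaic libraries, 480 in untreated rKO1, 177 in rKO1 Brg1-deleted and 81 in rKO1 Brg1-reexpressed cells, with 38 and 283 in aTreg, and so had the order of *Ighg1* among the rKO1 libraries. *Fcer1g* had the highest summed FPKM of the list and *Fcamr* the lowest.

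Outside the immunoglobulin genes, the levels most like *Ighm* over the 6 total Treg libraries were those of *Aldoc* (an aldolase of glycolysis), *Adam10* (a membrane protease), *Anapc13* (a subunit of the anaphase-promoting complex), *Cst3* (cystatin C) and *Aurkaip1*, with Pearson's r of 0.998, 0.995, 0.995, 0.994 and 0.994 among 10741 genes. Their ranges were narrower than that of *Ighm*, with *Aldoc* at 0.438 FPKM in mosaic Brg1-deleted and 3.20 in rKO1 Brg1-reexpressed cells and *Cst3* at 161 and 289. Most like *Ighg1* were *Nbeal2*, *Abcb1a* (a drug efflux pump), *Jdp2* (a transcription factor), *Ccl8* (a chemokine) and *Phf21b*, with r of 0.988 to 0.994. *Ccl8* was at 3.61, 8.74, 5.27, 115, 37.9 and 16.5 FPKM in the 6 libraries. With 6 points and this many genes, such values are a description only.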

How the data were processed

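The members, gene lists and tests were chosen with earlier results of these data known. The authors aligned reads to mm10 and counted them per gene, with HISAT2 2.0, StringTie 1.3.3b and featureCounts 1.5.0-p3 named in the submitters' processing notes. The annotation and strand setting were not given in the sources used here. The deposited values were taken to be FPKM, as the files hold 1 value per gene with no unit stated. FPKM times merged exon length (GENCODE M21, GRCm38) gave whole reads, within 0.05 of a read, for 93.4% to 93.7% of values in the total Treg and 100% in the aTreg files, and for all members. Gene IDs not in that annotation (105 of 53465) were left out. The library total implied by the values was 0.815 (rKO1 Brg1-reexpressed) to 1.08 (untreated rKO1) times the reads on genes in the total Treg files. It was 1.00 times these reads in the aTreg files. Files of the 2 experiments were scaled with TMM (trim 0.3 and 0.05, own code in Python 3.11.15 with NumPy 2.4.6, checked on simulated counts), with a prior of 0.125 reads in log2 differences, and compared only within an experiment. The 2-fold criterion was applied to genes that reached 5 CPM in at least 1 library of a pair; the authors' adjusted p was not computed, as each group is 1 library. Intervals are exact Poisson (levels), Clopper-Pearson (shares) or exact conditional (ratios) at 95% and cover counting error only. Named genes were the members, *Iglc1* to *Iglc3*, the 3 heavy and 3 light variable genes with the highest mean FPKM in total Treg, the highest and lowest gene of each list (one is not reported here) and those past 2-fold in a comparison described, and the 5 genes most like *Ighm* and *Ighg1*. Sequences are from GENCODE M21.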

Additional observations from a re-analysis of the deposited data

Results flagged for a closer look

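Among pairs of the same contrast, 4 genes were past 2-fold in opposite directions. The difference between pairs was not tested in any of them, since each pair is 2 single libraries, and the aTreg labels are in doubt (*Smarca4* at 11.1 FPKM in the library labelled Brg1-deleted and 9.02 in the other). *Ighd* differed by −1.05 on the log2 scale in mosaic Brg1-sufficient against Brg1-deleted cells and by 2.40 in rKO1 Brg1-reexpressed against Brg1-deleted cells, a gap of −3.45. *Ighg1* differed by −1.23 in the rKO1 and 4.54 in the aTreg pair, labelled reexpressed against labelled deleted in both (gap −5.77). *Ighg2b* differed by −2.51 and 1.86 in these pairs (gap −4.38), and *Jchain* by −1.05 and 1.88 (gap −2.92). Groups of 1 library cannot hold an outlying sample, so none was looked for.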

How the results depend on the processing

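Depth limits the low genes: *Ighg1*, *Ighg2b*, *Ighg2c*, *Ighg3* and *Ighe* had 0 to 8 reads each in WT. No library could be left out, as each group is 1 library, and no paired analysis was possible because the labels carry no replicate numbers. All 32 called differences of members kept their direction and stayed past 2-fold (or 1.5-fold where that was the limit) with total-read scaling, FPKM as deposited, no filter, a 1.5-fold limit and a prior of 1 read. Without the filter the number of members past 2-fold went from 2 to 6 in mosaic Brg1-deleted against sufficient cells and from 1 to 6 in mosaic sufficient against WT cells. Switched shares, listed in the order WT, mosaic sufficient, mosaic deleted, untreated rKO1, rKO1 deleted, rKO1 reexpressed, aTreg labelled deleted and aTreg labelled reexpressed, moved beyond their counting interval as follows. As reads, they were 2.26%, 12.3%, 32.0%, 21.8%, 2.35%, 2.44% and 13.4% in all but WT. By secreted-form length (chosen after seeing the data) they were 0.851%, 3.04%, 15.1%, 38.9%, 27.4%, 3.15%, 3.27% and 17.2%. Without *Ighe* and *Ighg3* they were 7.35% in mosaic deleted, 24.6% in untreated rKO1, 1.66% in aTreg labelled deleted and 10.6% in aTreg labelled reexpressed. Without *Ighd* all 8 stayed within the interval. For lists other than the members, the median log2 difference was also taken in place of summed FPKM. Where the sums differed at least 2-fold, the sign turned for the myeloid list in untreated rKO1 against WT (−1.95 to 0.45). It also turned for the CD8 T or NK list in untreated rKO1 against mosaic deleted cells (−1.03 to 0.031). Smaller differences changed sign in several lists. The B cell list did so in mosaic sufficient against WT cells (−0.597 to 0.149) and in rKO1 deleted against untreated cells (−0.00764 to 0.447). In aTreg labelled reexpressed against labelled deleted it went from −0.452 to 0.154. It kept its sign in all other comparisons.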
